A study of Mus musculus with 16 samples.

Results

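Trichostatin A (TSA), an inhibitor of histone deacetylases, was added to fibroblasts that were then deprived of iron with dipyridyl (DP), and the messenger RNA of these cells was compared with that of cells given DP alone. The comparison used 8 of the 16 arrays of the series, chosen by their treatment labels: 4 arrays of cells with TSA and DP and 4 arrays of cells with DP alone, with 1 array of each kind from each of 4 lines of primary mouse embryonic fibroblasts. Cells with TSA and DP had received TSA at 100 ng/ml and, 30 min later, DP at 100 µM. Cells with DP alone had received the ethanol solvent (EtOH) in place of TSA and then the same dose of DP. The cells were lysed 3 h after DP or its solvent had been added, and no culture was made hypoxic. The other 8 arrays, of the same lines with TSA alone or EtOH alone, served for the size of the TSA change without DP.

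The lines differed in the genes of the coactivators CBP (Crebbp) and p300 (Ep300), whose CH1 domain binds the hypoxia-inducible factor HIF. In triCH1flox1, CH1 was deleted from both p300 alleles and from one CBP allele, and the other CBP allele was conditional. In triCH1flox2, CH1 was deleted from both CBP alleles and from one p300 allele, and the other p300 allele was conditional. The control lines flox1 and flox2 carried a conditional allele of CBP and of p300, in that order, beside alleles with an intact CH1. All 4 lines came from E14.5 embryos. At passage 3 they received adenoviral Cre recombinase, which deletes conditional alleles, and they had expanded at least 100-fold before use. Each line is a single culture history with 1 array per treatment, so n = 4 lines throughout. The p-values weigh a mean difference against the spread left after line and treatment, part of which limma takes from other genes.

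Histone deacetylases remove acetyl groups from lysines of histones and other proteins, and TSA blocks the zinc-dependent members of the family. HIF is held low by prolyl hydroxylases that need oxygen and iron, so an iron chelator stabilises its alpha subunits in normal air and turns on genes of glucose uptake, glycolysis, mitochondrial adaptation and blood vessel growth. CBP and p300 acetylate histones and serve as coactivators of HIF, so that acetylation and deacetylation meet at its target genes.

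Signals are the deposited array values, which the authors' software scaled on every array to the same trimmed mean of 500, so a change is relative to the average probe set of its array. A gene was tested where its probe set reached a signal of 200 on at least 2 of the 16 arrays, which left 11481 genes. Changes are differences of log2(signal + 50), TSA with DP minus DP within a line, averaged over the 4 lines and tested with limma. A gene is said to have risen or fallen where its Benjamini-Hochberg adjusted p over all genes tested was under 0.05. The constant of 50 makes changes of dim genes look smaller. The pairwise correlations among the 8 arrays were between 0.916 and 0.958 over all probe sets. The 18S ribosomal RNA signal was 4298 on the DP array of flox2 and between 928 and 1693 on the other 7 arrays, and the part of this in the results was not tested beyond leaving out that line. In bulk RNA, fewer cells of a kind and less RNA per cell cannot be told apart. The fibroblast label was checked against 17 marker genes on the array, all bright enough to be tested, of which 1 rose, 2 fell and 14 did not pass, with a median change of -0.01. Col1a1, the gene of a type I collagen chain, averaged 33612 in TSA with DP and 33756 in DP. None of 6 endothelial and none of 3 erythroid markers on the array reached the signal needed for testing, and 4 of 7 macrophage markers did, none of which passed. That signal was also reached by 12 of 12 smooth muscle, 5 of 5 cartilage and 4 of 5 adipocyte markers. It was reached by 4 of 6 neural, 4 of 8 skeletal muscle and 3 of 6 epithelial markers, so this signal alone does not tell cell types apart.

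TSA changed a large part of the transcriptome under DP. Of the 11481 genes, 2371 rose (20.7% of those tested) and 1649 fell (14.4%), while the median change of all genes was 0.02 on the log2 scale. A rise of at least 1.5-fold was seen in 1295 of these genes and a fall of that size in 883. At 2-fold the counts were 516 and 298, and at 4-fold 29 and 11. Of those that rose, 2251 were higher in all 4 lines, and of those that fell, 1541 were lower in all 4, which the paired test over these lines favours. Over all genes, called or not, 3060 were higher in all 4 lines and 2380 lower. Without the block for line, 1496 genes rose and 995 fell.

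Most genes that changed under DP moved the same way in cells without DP. Of the genes that rose under DP, 97.7% also had a positive TSA change in cells without DP, and of those that fell, 93.0% had a negative one. The median change of the genes that rose was 0.62 with DP, against 0.51 without it, and that of the genes that fell was -0.62 with DP, against -0.52 without it. Since the genes were chosen on their change under DP, the larger medians there are a description. Over all genes the changes with and without DP had a Pearson correlation of 0.775, a description across genes of the same 4 lines with no array in common.

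The largest rise on this scale was that of Tent5c, which encodes a poly(A) polymerase. Its signals were 784, 677, 545 and 377 in TSA with DP (lines in the order flox1, flox2, triCH1flox1 and triCH1flox2, as in all such lists here), against 20.2, 32.0, 22.7 and 19.5 in DP. The groups were far apart in every line, and the log2 change was 3.09 (SE 0.284, adjusted p = 3.23e-07). Because the signals in DP were near background, the size and the rank rest on the constant: the change was 3.91 with 16 added and 1.80 with 200 added, where that of Fam117a was 2.47. Fam117a was brighter and gave a firmer size, with 2595, 2113, 2751 and 1813 in TSA with DP against 296, 182, 279.5 and 248 in DP, a change of 2.97 (SE 0.133, adjusted p = 1.16e-10). The next largest rises were Chchd10, a mitochondrial protein gene (2.77), Rhpn2 (2.75), Azin2, an antizyme inhibitor gene (2.63), Mfsd12 (2.51), the ubiquitin protease gene Usp2 (2.49) and Depdc7 (2.45). They were followed by the orphan nuclear receptor gene Nr4a3 (2.44), Dzank1 (2.44), Rgs9bp (2.43), the POU factor gene Pou3f1 (2.42), Abhd15 (2.35), the Myc antagonist Mxd1 (2.31) and Reep6 (2.27). The mean signal in DP was under 100 for 150 of the 2371 genes that rose. Among the 15 largest rises it was 18.5 for Rgs9bp, 23.7 for Pou3f1, 30.7 for Rhpn2, 36.7 for Abhd15 and 38.0 for Azin2. It was 38.9 for Dzank1, 40.5 for Nr4a3, 64.2 for Reep6 and 97.8 for Usp2, so these sizes and ranks also rest on the constant. The DP means of Chchd10, Depdc7, Mfsd12 and Mxd1 were higher, at 129, 131, 154 and 209. A further probe set changed by 0.37 for Azin2 and by -0.30 for Abhd15, so these rises rest on the brighter probe set of each gene. Further probe sets rose less for Chchd10 (1.45), Rhpn2 (1.53) and Mxd1 (1.23) and more for Usp2 (2.98). All 15 were also higher with TSA in cells without DP, by 1.43 (Nr4a3) to 2.89 (Fam117a).

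The largest fall was that of Cxcl5, a chemokine that attracts neutrophils. Its signals were 17.3, 36.1, 46.2 and 15.4 in TSA with DP against 819, 1159, 2431 and 1502 in DP, a change of -4.19 (SE 0.229, adjusted p = 1.52e-09). Every TSA with DP signal was near background, so the size depends on the constant, with -5.01 for 16 and -2.79 for 200. Lif, a cytokine of the IL-6 family, had 128, 75.2, 140.2 and 24.2 in TSA with DP against 865, 737, 546 and 484 in DP (log2 change -2.38, SE 0.241, adjusted p = 1.01e-06). The growth factor gene Fgf7 had 377, 321, 388 and 388 in TSA with DP against 1528, 1507, 2749.7 and 1707 in DP (log2 change -2.16, SE 0.140, adjusted p = 7.44e-09). In each of these genes the groups did not overlap. Of the others, 2 were HIF targets, Ankrd37 (-2.27) and Ak4 (-2.21). The remaining falls were in the serotonin receptor gene Htr1b (-2.19), Bend3 (-2.15), the hyaluronan synthase gene Has2 (-2.07), Sertad4 (-2.04), the TNF family ligand gene Tnfsf9 (-2.03), Gmeb2 (-2.02), the chromatin reader gene Zmynd8 (-1.97), the splicing factor gene Srek1 (-1.97), the calcium-regulated transcription factor gene Nfatc4 (-1.95) and the cytokine gene Clcf1 (-1.92). The other probe set of Gmeb2 changed by 0.60, and one of Clcf1 did not fall. Further probe sets fell less for Htr1b (-0.69), Zmynd8 (the least -0.33), Srek1 (the least -0.67) and Nfatc4 (the least -0.76). Those of Fgf7 (-2.02), Has2 (-2.06) and Ak4 (-1.98) fell by similar amounts. Of the 15, only Ankrd37 and Ak4 had TSA changes near 0 without DP, 0.00 and 0.11, while the other 13 were between -3.44 (Cxcl5) and -0.79 (Tnfsf9).

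**Figure D1:**
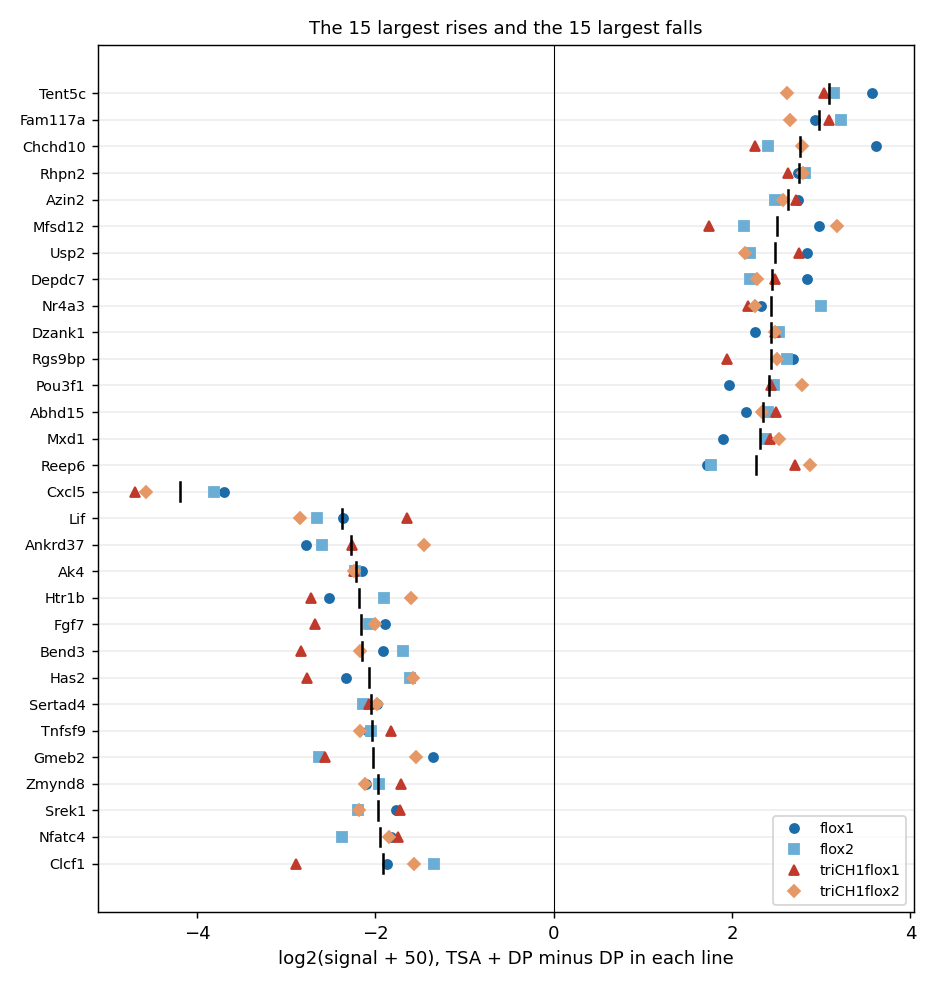
Change in log2(signal + 50), TSA with DP minus DP, for the 15 genes with the largest rises and the 15 with the largest falls that moved alike in all 4 lines. Each symbol is a line and each bar the mean of the 4 lines, from 3.09 for Tent5c to -4.19 for Cxcl5.

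Most of the known HIF targets fell with TSA under DP, although their TSA changes without DP were mostly positive. Members of 2 lists of known HIF targets are described here, 60 tested genes of 68 listed, and 36 of the 60 fell, 7 rose and 17 did not pass, beside backgrounds of 14.4% and 20.7% over all genes. Their median change was -0.46 with DP, against 0.28 without it. By line the median change with DP was -0.49 in flox1, -0.75 in flox2, -0.33 in triCH1flox1 and -0.27 in triCH1flox2, and 51, 53, 42 and 43 of the 60 genes were lower in these lines. HIF binds DNA at a core motif, ACGTG or GCGTG. The windows below are shown because Ankrd37, Pdk1 and Egln3 were among the 5 genes whose TSA change differed most between cells with and without DP. They run from 250 bases before to 50 bases after an annotated start, 5′ to 3′ on the gene's strand (RefSeq, build GRCm38.p6), at chr8:45999801-46000100 on the minus strand for Ankrd37, chr2:71872974-71873273 on the plus strand for Pdk1 and chr12:54203825-54204124 on the minus strand for Egln3. Capitals mark either motif on either strand, with CACGT and CACGC as its reverse.
Ankrd37: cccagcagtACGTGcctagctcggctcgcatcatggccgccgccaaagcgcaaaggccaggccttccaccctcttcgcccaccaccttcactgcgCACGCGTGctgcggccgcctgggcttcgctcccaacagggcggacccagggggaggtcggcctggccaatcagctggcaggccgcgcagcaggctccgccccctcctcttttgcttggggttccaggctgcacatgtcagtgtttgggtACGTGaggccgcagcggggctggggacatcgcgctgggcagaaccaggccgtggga
Pdk1: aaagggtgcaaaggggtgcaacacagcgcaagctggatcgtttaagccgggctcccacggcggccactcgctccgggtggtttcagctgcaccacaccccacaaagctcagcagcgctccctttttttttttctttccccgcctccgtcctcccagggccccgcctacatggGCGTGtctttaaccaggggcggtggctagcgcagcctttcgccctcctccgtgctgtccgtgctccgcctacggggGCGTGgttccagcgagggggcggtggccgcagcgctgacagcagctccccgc
Egln3: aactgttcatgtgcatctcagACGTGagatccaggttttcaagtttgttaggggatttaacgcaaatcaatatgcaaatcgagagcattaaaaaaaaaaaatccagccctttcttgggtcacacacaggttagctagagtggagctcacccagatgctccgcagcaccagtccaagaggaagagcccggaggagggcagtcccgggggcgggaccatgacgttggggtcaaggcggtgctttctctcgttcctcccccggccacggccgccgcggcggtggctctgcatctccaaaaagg

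The window of Ankrd37 held 4 such motifs, that of Pdk1 2 and that of Egln3 1. Pdk1 has another annotated start, whose window held 0. The motif is common: it lay in 62.1% of all 11827 windows of tested genes. It lay in 76.7% of the 73 windows of the HIF lists, found for 50 of the 60 genes. For the 15 largest falls the share was 78.9% of 19 windows, found for 10 of these genes. For 45 genes described below, whose TSA change differed with DP, it was 74.1% of 54 windows, found for 38 of them. These shares describe the windows and identify no binding.

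Glucose uptake, glycolysis and glycogen made up the first list, with 21 genes tested. Of these 14 fell, 3 rose and 4 did not pass, and the median change was -0.38. Slc2a1, the gene of the glucose transporter GLUT1, had signals of 12486, 12311, 10993 and 9433 in TSA with DP against 20209, 21137, 13990.1 and 13208 in DP. It was lower with TSA in each line, with a change of -0.57 (SE 0.0700, adjusted p = 6.66e-06), and its mean without DP was 7423 with TSA and 4524 with EtOH. The hexokinase genes Hk2 (log2 change -0.97, SE 0.0849, adjusted p = 1.93e-07) and Hk1 (log2 change -0.49, SE 0.0890, adjusted p = 0.000388), whose products trap glucose in the cell, fell too. Pfkl, a phosphofructokinase subunit gene, had 2332, 1968, 1608 and 1808 in TSA with DP against 5643, 6466, 4525 and 5458 in DP (log2 change -1.49, SE 0.0846, adjusted p = 2.13e-09). Pfkfb3, which makes the fructose bisphosphate that activates phosphofructokinase, had 825, 838, 329 and 398 in TSA with DP against 3091, 3865, 1147 and 1473 in DP (log2 change -1.85, SE 0.115, adjusted p = 4.48e-09). The groups overlapped in neither gene. Further probe sets changed by -1.37 and -0.51 for Pfkl and by -0.54 for Pfkfb3, so the sizes depend on the probe set. Gys1, the muscle-type glycogen synthase gene (-1.36), and Slc16a3, a lactate exporter gene (-1.02), fell by the values in brackets, which are log2 changes here and below.

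The genes of the lower glycolytic steps were bright and moved little by their brightest probe sets. Tpi1 (-0.47), Pgam1 (-0.36), the lactate dehydrogenase gene Ldha (-0.29), Pgk1 (-0.24) and Pkm (-0.19) fell. Pgk1, for instance, had 17349, 16127, 16278 and 16088 in TSA with DP against 21479, 19513, 18279.8 and 18518 in DP. Further probe sets of Pgk1 changed by -0.23 and -0.96, so the size of its fall depends on the probe set. Aldoa (-0.08), Aldoc (-0.38), Gbe1 (-0.81) and Ppp1r3c (0.17) did not pass. The 3 genes that rose were Slc2a3, the gene of the transporter GLUT3 (log2 change 1.42, SE 0.166, adjusted p = 4.23e-06), Pfkfb4 (0.67) and the neuron-type enolase Eno2 (0.94). Slc2a3 had 2811, 2700.4, 1711 and 1268 in TSA with DP against 1516, 1209, 309 and 448 in DP, higher in every line, with a larger TSA change of 2.77 in cells without DP. Without triCH1flox1 the changes of Pfkfb4 (0.48, adjusted p = 0.101) and Eno2 (0.53, adjusted p = 0.127) did not pass. Pkm did not pass without flox1 (-0.16), flox2 (-0.15) or triCH1flox2 (-0.21). Pfkp, which fell (-0.38), did not pass without flox2 (-0.27), the line with the high 18S signal, and Gbe1 passed without triCH1flox2 (-1.20).

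Pdk1 and targets that act in or on mitochondria fell by very different amounts on their brightest probe sets. Pdk1, the gene of a kinase that inhibits pyruvate dehydrogenase, had signals of 314, 666, 487 and 566 in TSA with DP against 1686, 2119.5, 1889 and 1749.9 in DP, a change of -1.81 (SE 0.131, adjusted p = 2.18e-08). Its means in cells without DP were 390.2 with TSA and 236 with EtOH, so the level in TSA with DP was nearer to these than to that of DP. Ak4, an adenylate kinase gene of mitochondria, had 796, 794, 740.4 and 734 in TSA with DP against 3704, 3912, 3667 and 3651 in DP, with little spread between lines in either group (log2 change -2.21, SE 0.0914, adjusted p = 4.04e-11). Bnip3, a gene of mitophagy, had 6276, 6068, 6216 and 6165 in TSA with DP against 12479.7, 12143, 10192 and 9598 in DP (log2 change -0.83, SE 0.0729, adjusted p = 1.95e-07). The groups did not overlap in any of these 3 genes. The TSA with DP mean of Bnip3, 6181, was above its means of 2482 with TSA and 1005 with EtOH in cells without DP. Fam162a (-0.66) and Higd1a, a mitochondrial gene induced by hypoxia (-0.29), fell as well.

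Among secreted factors, Vegfa, the main driver of vessel growth, had 1342, 1215, 974 and 575 in TSA with DP against 3346, 2344, 2517 and 1747 in DP (log2 change -1.26, SE 0.108, adjusted p = 1.47e-07). Its TSA with DP level was below that of DP in every line, and the groups did not overlap. Adm, the gene of the vasodilator adrenomedullin, fell (-1.10), and it also had a TSA change of -0.88 without DP. The stanniocalcin genes Stc1 (-1.82) and Stc2 (-0.98) fell. Further probe sets of Stc2 changed by -1.16 and -2.08. Stc1 had 169.5, 245, 363 and 148 in TSA with DP against 1152, 1445, 632 and 615 in DP. Igfbp3, a carrier of insulin-like growth factors, rose by 0.84, and it did not pass without flox1 (0.74) or triCH1flox1 (0.60). Angptl4 (-0.44) did not pass.

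Several genes of HIF feedback and of iron-dependent enzymes fell. Egln3, a prolyl hydroxylase gene that HIF induces, had 902, 924, 446 and 468 in TSA with DP against 3757, 4244, 797 and 609 in DP (log2 change -1.31, SE 0.217, adjusted p = 0.000144). The control lines had the high DP levels and the large falls: the mean change was -0.56 in the 2 triCH1 lines and -2.07 in the 2 control lines. Egln1, the main prolyl hydroxylase gene, had 2136, 2317, 2383 and 2273 in TSA with DP against 4216, 4287, 4374 and 3421 in DP (log2 change -0.82, SE 0.0842, adjusted p = 1.16e-06), with no overlap. Its other probe set changed by -1.63. The demethylase gene Kdm3a (-1.41) and Jmjd6 (-1.17) fell, while Kdm4b (-0.48, adjusted p = 0.054) and Kdm4c (-0.42) did not pass. Of the collagen-modifying genes, P4ha1 fell (-0.30), but not without flox2 (-0.23, adjusted p = 0.0552). P4ha2 (-0.22), Plod1 (-0.00), Plod2 (-0.01) and Lox (-0.14) did not pass. P4ha2 (-0.32) and Lox (-0.21) passed without triCH1flox1. Ero1a, an oxidase of protein folding, rose by 0.38, in 3 of 4 lines, and it did not pass without triCH1flox1 (0.33) or triCH1flox2 (0.24).

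Of the other HIF targets, Ankrd37, an ankyrin repeat gene, had 713, 882, 225 and 234 in TSA with DP against 5180.2, 5589.6, 1268 and 732 in DP (log2 change -2.27, SE 0.165, adjusted p = 2.21e-08). The DP levels of its control lines were well above those of the triCH1 lines, and TSA lowered the gene in all 4. The repressor gene Bhlhe40 had 1186, 1368, 1116 and 895 in TSA with DP against 4935, 5467, 3382 and 2666 in DP (log2 change -1.76, SE 0.101, adjusted p = 2.28e-09), and its change without DP was -1.26. Falls were also seen in Hilpda, which acts on lipid droplets (-1.18), Ddit4, a brake on the mTOR kinase (-0.78), Ndrg1 (-0.65), the haem oxygenase gene Hmox1 (-0.62), Ier3 (-0.37) and the small Maf gene Maff (-0.57). Zfp395 fell (-0.72), but not without flox1 (-0.55) or flox2 (-0.55). Insig2 (0.40) and the transferrin receptor gene Tfrc (0.27) rose. Cited2 (0.03), which competes with HIF for CH1, Mxi1 (-0.13), Car9 (-0.17), Car12 (0.32), Narf (0.10) and Rora (-0.39) did not pass, and Rora passed without triCH1flox1 (-0.51). In this second list 22 of 39 tested genes fell, 4 rose and 13 did not pass, with a median of -0.48. Without the block for line, 14 of them fell and 0 rose. The rises in this list numbered 1 with the mean of all probe sets and 1 without the variance trend of limma. Leaving out triCH1flox1 lowered the genes that rose to 1 in the first list and 2 in the second.

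**Figure D2:**
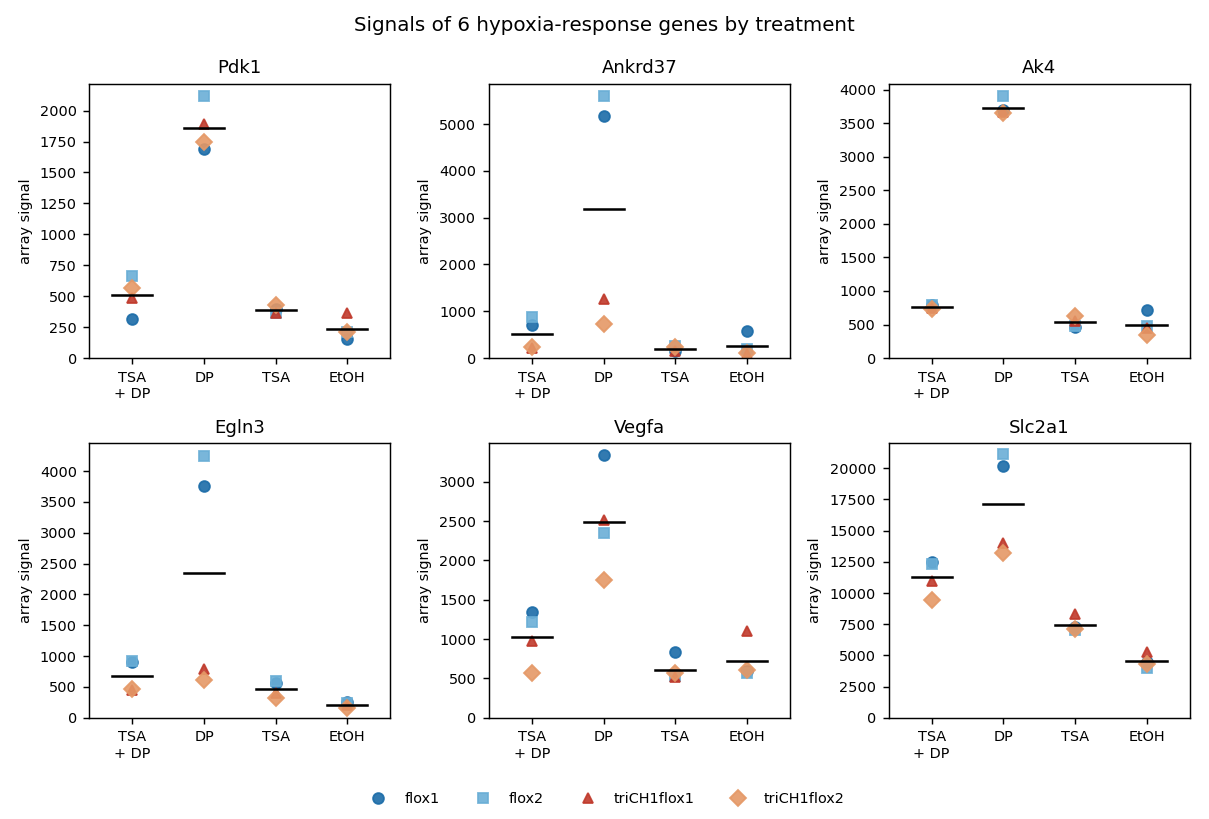
Array signal (linear scale, from 0) of Pdk1, Ankrd37, Ak4, Egln3, Vegfa and Slc2a1 under TSA with DP, DP, TSA and EtOH. Symbols are the 4 lines and bars their means, and for each gene the DP mean is the highest, at 3733 for Ak4 against 766 in TSA with DP.

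The genes of the HIF subunits and their regulators formed another list, with 11 tested genes, of which 1 rose and 4 fell. Over all genes 20.7% rose and 14.4% fell, and the fallen Egln1 and Egln3 are also on the second list of HIF targets. Hif1a, the gene of the main alpha subunit, had 6314, 6743, 7288 and 6802 in TSA with DP against 6072, 5958, 7386 and 6400.1 in DP, and its change of 0.08 (SE 0.0663, adjusted p = 0.416) was positive in 3 of 4 lines and did not pass. Epas1, the gene of HIF-2 alpha, rose, with 568, 684, 542 and 582 in TSA with DP against 127, 358, 234 and 49.5 in DP (log2 change 1.59, SE 0.256, adjusted p = 0.000113). Its second probe set changed by -0.32, and with the mean of both probe sets it did not pass. Besides Egln1 and Egln3, Egln2 fell (-0.67), with a change of -0.68 without DP. Vhl, whose product marks hydroxylated HIF for destruction, fell (-0.70). The partner genes Arnt (-0.09) and Arnt2 (0.24), Hif3a (0.26), the asparaginyl hydroxylase gene Hif1an (0.23) and Cul2 (0.01) did not pass.

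The test of the difference between the TSA change with DP and that without it used all 16 arrays. One of them, the EtOH array of flox1, had a ratio of 3′ to 5′ Gapdh control signal of 2.59, against 0.907 to 1.26 on the other 15, and an 18S signal of 6001. In 45 genes (0.392% of 11481) the change with DP was the lower one, and in 0 genes (0%) the higher one, by limma, with 680 genes at an unadjusted p under 0.05. The largest differences were those of Pdk1, at -2.48 (SE 0.264, adjusted p = 0.000121), Ak4, at -2.32 (SE 0.195, adjusted p = 6.36e-06), Ankrd37, at -2.28 (SE 0.367, adjusted p = 0.0059), Egln3, at -2.27 (SE 0.199, adjusted p = 9.46e-06), and Stc1, at -2.14 (SE 0.405, adjusted p = 0.0208). Of the 45, 26 were on the HIF lists, 10 of the 21 tested in the first and 16 of the 39 tested in the second. In each of the 4 lines all 45 had the lower change with DP, which the choice of the genes favours. All 45 had a higher mean signal with DP than with EtOH, which the choice of the genes favours too. In TSA with DP 39 of them still had a higher mean than with EtOH and 36 a higher mean than with TSA, while 40 had a lower mean than with DP. Of the 45, 37 also fell, 4 rose and 4 did not pass in TSA with DP against DP, a comparison that shares 8 arrays with this one.

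For some of these genes TSA had a positive change where DP was absent. Bnip3 changed by -0.83 with DP and by 1.27 without it, a difference of -2.10 (SE 0.120, adjusted p = 5.54e-08). Slc2a1 changed by -0.57 with DP and by 0.71 without it, a difference of -1.29 (SE 0.102, adjusted p = 3.96e-06). Egln3 changed by -1.31 with DP and by 0.96 without it, and Mxi1 by -0.13 with DP and by 1.07 without it. Slc2a3 (1.42 with DP and 2.77 without it) and Ero1a (0.38 with DP and 1.15 without it) were higher with TSA in both settings. In others the mean TSA change without DP was small, as in Ankrd37 (0.00), Hk2 (0.04), Gys1 (0.08) and Ak4 (0.11). The EtOH signals of Ankrd37 (mean 247, SD 228) and Gys1 (mean 593, SD 235) varied widely between lines, so their small means need not hold in each line. Differences that did not pass include Adm (-0.22), Bhlhe40 (-0.50), Ldha (-0.37), Pgk1 (-0.29), Ddit4 (-0.55) and Jmjd6 (-0.92, adjusted p = 0.0893). The other 19 genes with a lower change under DP, named after their values were seen, included the cyclin gene Ccng2 (-1.33), the lipoprotein receptor gene Vldlr (-1.34), Pgm1, a phosphoglucomutase of glycogen use (-1.08), Pgp, a phosphatase of glycolytic by-products (-0.85), and Sap30, a subunit of the Sin3 deacetylase complex (-1.32). Others were Plekha2 (-1.21), Pdxp (-1.83), Clcn3 (-1.14), Tbl2 (-1.38), Tiparp (-1.06), Hbegf (-0.60) and Pnrc1 (-0.82). Without the EtOH array of flox1 the count was again 45, with 40 genes in common. The count rests on all lines: it was 17 without flox1, 20 without triCH1flox1, 16 without flox2 and 16 without triCH1flox2. Ak4, Bnip3, Egln3, Fam162a, Hk2, Pdk1, Slc2a1, Pdxp and Plekha2 passed in each of these 4 fits, while 14 of the 45 passed in none of them, Ndrg1, Egln1, Hilpda, Slc2a3, Vegfa and Ero1a included.

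**Figure D3:**
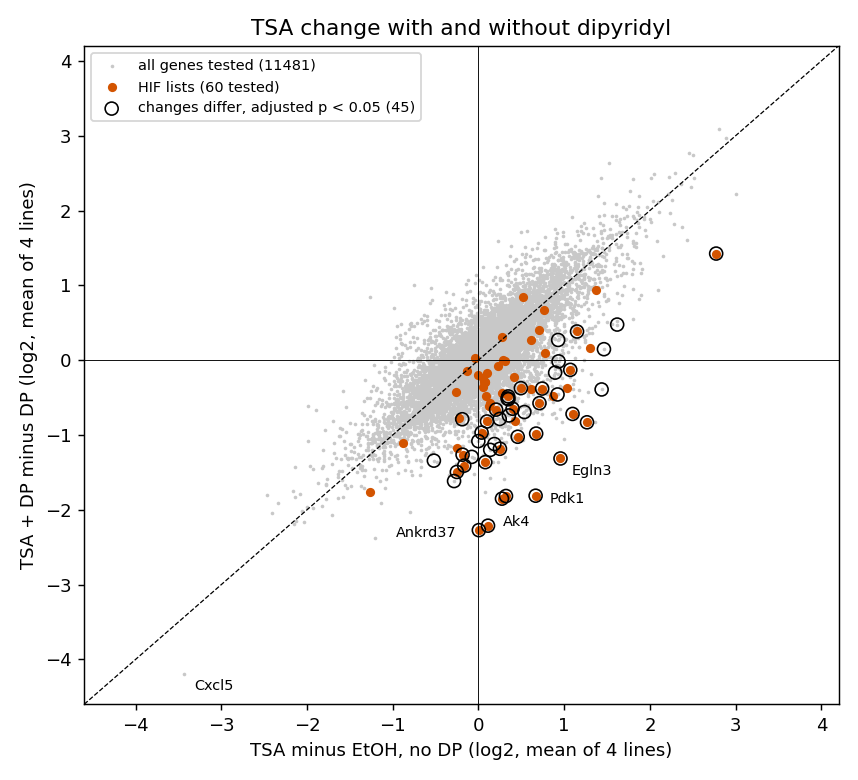
Mean TSA change over 4 lines in cells with DP (vertical) against that in cells without DP (horizontal), both in log2(signal + 50), for 11481 genes. Orange points are the 60 tested genes of the HIF lists. Circles are the 45 genes whose changes differed, all below the dashed line of equal change. Over all 11481 genes the Pearson correlation between the changes with and without DP was 0.775.

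Some genes of the acetylation machinery itself changed. Both coactivator genes fell: Crebbp had 384, 625, 458 and 674 in TSA with DP against 1633, 2069, 1554 and 1880.0 in DP (log2 change -1.67, SE 0.121, adjusted p = 2.21e-08), and Ep300 had 433, 286, 425 and 271 in TSA with DP against 1350.4, 605, 1945 and 771 in DP (log2 change -1.48, SE 0.167, adjusted p = 3.05e-06). The groups did not overlap in either gene, and the changes without DP were -1.56 and -1.59. Each line carries a conditional or CH1-deleted allele of at least one of these genes, and whether the probe sets tell the alleles apart was not tested. The acetyltransferase gene Kat7 (-0.97) and Rcor1, of the CoREST corepressor (-0.70), fell as well. In the list of acetyltransferases, CITED proteins and corepressors 7 of 19 fell and 1 rose (4 fell without triCH1flox2). Of 17 deacetylase genes 6 rose and 4 fell, with a median of 0.19. Over all genes 20.7% rose and 14.4% fell. Hdac1 rose by 0.41 and the sirtuin gene Sirt7 by 1.09, while Hdac7 (-1.15) and Sirt6 (-1.34) fell. The fallen count was 2 without flox2 and 2 without triCH1flox2.

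Genes known to respond to deacetylase inhibitors in other cells moved mostly in the listed direction. Of 21 genes listed as rising, 14 rose, 3 fell and 4 did not pass, with a median of 0.71, beside 20.7% that rose and 14.4% that fell over all genes. The linker histone gene H1f2 had 15126, 13668, 12540.1 and 12937 in TSA with DP against 2814, 3259.8, 3618 and 3161 in DP (log2 change 2.06, SE 0.0841, adjusted p = 4.04e-11). Rhob, a small GTPase gene, rose by 1.13 and the heat shock gene Hspa2 by 1.75. Cdkn1a, the gene of the cell cycle inhibitor p21 and a common marker of such inhibitors, went the other way, with 8833, 6740.2, 5820.5 and 4609 in TSA with DP against 12039, 13454, 8734 and 7925 in DP (log2 change -0.70, SE 0.0795, adjusted p = 3.30e-06). It was lower with TSA in every line, and its change without DP was -0.28. Of 22 genes listed as falling, 13 fell, 2 rose and 7 did not pass, with a median of -0.39. The chromatin protein gene Hmga2 (-1.24), the AP-1 gene Fosl1 (-1.91) and Rrm2, a ribonucleotide reductase subunit gene (-0.86), fell. Brca1 rose by 1.35, and Tyms (0.08), which makes thymidylate, did not pass.

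Myc fell and its antagonist Mxd1 rose. Myc had 312, 410.3, 397 and 434 in TSA with DP against 557, 693, 807 and 763 in DP (log2 change -0.78, SE 0.149, adjusted p = 0.000544), and Mxd1 had 1201, 1301, 1165 and 1179.8 in TSA with DP against 285, 209.7, 177 and 163 in DP (log2 change 2.31, SE 0.159, adjusted p = 1.20e-08). The groups did not overlap for either gene. Of 12 genes of the Myc, Max and Mxd network 3 rose and 3 fell, among them Mlxip (1.12) and Mxd4 (-0.56). These counts and those of the next lists stand beside 20.7% that rose and 14.4% that fell over all genes. Of 20 ribosome biogenesis genes 3 rose and 4 fell, shares near that background, such as Bop1 (0.77) and Gnl3 (-0.76). Of 25 DNA replication genes 21 did not pass, 3 fell and 1 rose, and Tk1, the thymidine kinase gene, fell (-0.81). Of 24 mitosis genes 16 did not pass, 5 fell and 3 rose, and the lowest p-values included Cdc20 at -0.70, Plk1 at -0.61 and Cdk1 at -0.55. Among 14 CDK inhibitors and G1 cyclins 6 fell and 2 rose (3 fell without flox2), with Cdkn2d, the gene of p19, at 1.02 and Ccne2, the cyclin E2 gene, at -1.25. The rises numbered 1 without flox2 or triCH1flox1.

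**Figure D4:**
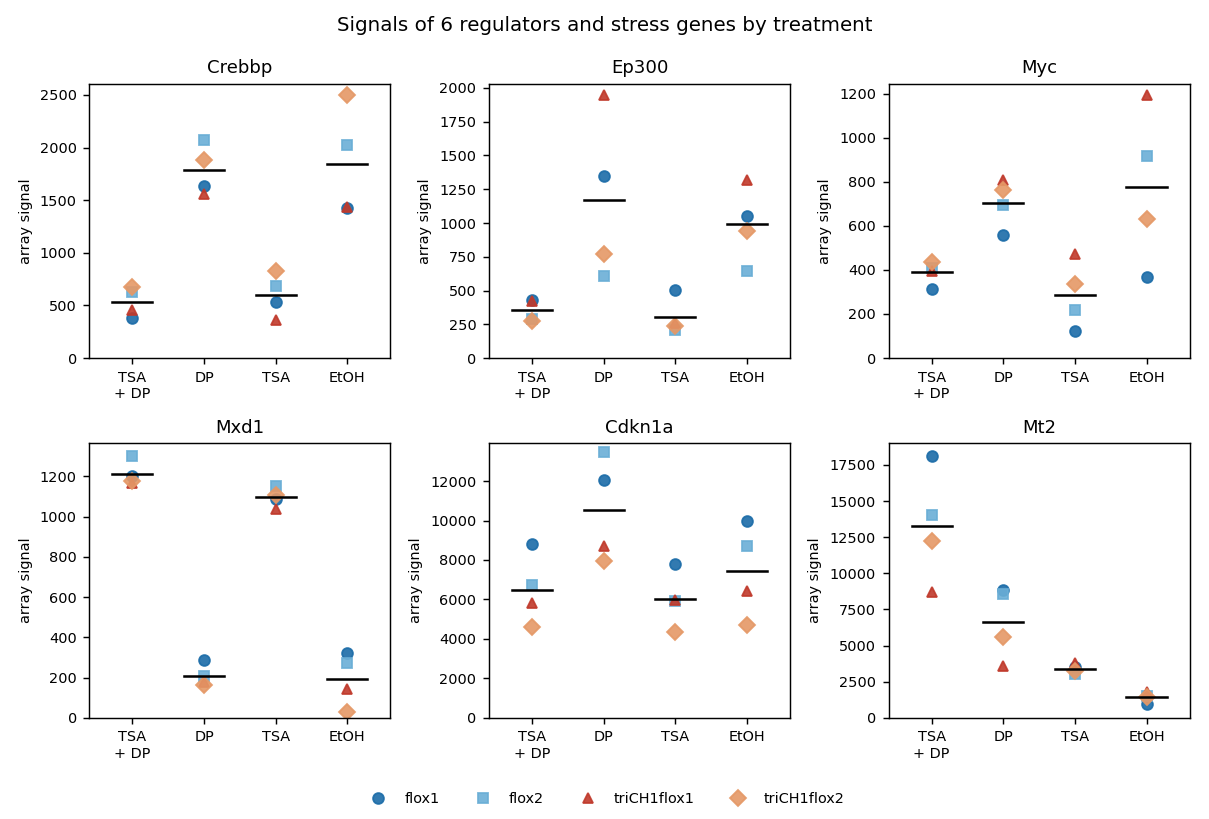
Array signal (linear scale, from 0) of Crebbp, Ep300, Myc, Mxd1, Cdkn1a and Mt2 under TSA with DP, DP, TSA and EtOH, with symbols for the 4 lines and bars for their means. Mxd1 averaged 1212 in TSA with DP and 209 in DP, and Crebbp 535 in TSA with DP and 1784 in DP.

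Regulators of cell death moved both ways, in lists to be read beside the same 20.7% and 14.4%. Bcl2l11, the gene of the death-promoting protein BIM, had 9012, 7315, 7981 and 5876 in TSA with DP against 1587, 1749, 1716 and 1259.7 in DP (log2 change 2.22, SE 0.0835, adjusted p = 1.78e-11), with no overlap. Pmaip1, the gene of NOXA, rose by 1.42. Of 14 Bcl2 family genes 6 rose and 6 fell, and Bnip3 and the protective gene Bcl2l2 (-0.82) were among those that fell. Of 20 p53 targets 7 rose and 6 fell, with Fas, a death receptor gene, at 1.76 and Phlda3, which restrains AKT, at -0.94.

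Both common metallothionein genes rose. Mt2, a metallothionein gene that binds zinc and copper, had 18137, 14019.7, 8698 and 12262 in TSA with DP against 8849, 8604, 3572 and 5591 in DP (log2 change 1.03, SE 0.0792, adjusted p = 4.62e-08), and Mt1 had 29297, 23861, 18039 and 19677 in TSA with DP against 17242, 18108, 8851 and 11074 in DP (log2 change 0.75, SE 0.0777, adjusted p = 1.22e-06). Both were higher in every line, and the groups overlapped only across lines, where triCH1flox1 had the lowest level of each group. In the list of metallothioneins and zinc transport 4 of 9 rose and 2 fell, beside 20.7% and 14.4% over all genes. Of 14 iron handling genes 7 rose, 1 fell and 6 did not pass, with a median of 0.29. Alas1, the first enzyme gene of haem synthesis, rose by 0.72, the mitochondrial iron importer gene Slc25a37 by 0.84 and Aco1, the gene of an iron-sensing aconitase, by 0.49.

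Stress, inflammatory and growth factor genes moved both ways, and several of the counts below are near the background of 20.7% that rose and 14.4% that fell over all genes. Of 13 heat shock genes 4 rose and 2 fell, with Hspa1a at 2.05 and Hspa1b, whose sequence is nearly identical, at 1.11, so that the array may not tell them apart. Of 21 ATF4 and unfolded protein response genes 7 rose and 6 fell (4 rose without triCH1flox2), with falls of Xbp1 (-1.30) and Atf4 (-0.996) and a rise of the amino acid transporter gene Slc7a5 (0.81). Of 16 chemokine, cytokine and NF-kB genes 7 fell and 2 rose. Ptgs2, the gene of cyclooxygenase 2, fell to a mean of 5560.1 in TSA with DP, against 15976 in DP (log2 change -1.62, SE 0.116, adjusted p = 1.95e-08), and Nfkb2 rose by 0.98. Of 22 immediate early genes 7 rose and 6 fell, with Nr4a1 at 1.59, Klf2 at 1.65 and Fosl2 at -1.84. Of 12 Kruppel-like factor genes 5 fell and 3 rose (1 without flox2), with Klf3 at -1.29. Of 16 genes of TGF-beta signalling 6 fell and 2 rose (1 without triCH1flox1 or flox2), with the feedback inhibitor Smad7 at -0.89 and Inhba at -0.60. Of 13 NRF2 and thioredoxin genes 4 rose and 3 fell, with Txnip, which binds thioredoxin, at 0.98.

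Among genes of basic metabolism and structure, of 19 oxidative phosphorylation genes 4 rose and 0 fell by limma, against 20.7% and 14.4% over all genes, so the rises are at the background share. The median was 0.11, and the rises numbered 2 without flox1 or triCH1flox2. The genes named by the smallest p included Ndufv1 (0.35) and Uqcrfs1 (0.34). Of 20 cholesterol and fatty acid genes 6 rose and 3 fell, with Dhcr7, the last enzyme gene of cholesterol synthesis, at 1.38. Without triCH1flox1 3 of these rose, without triCH1flox2 2 rose, and without flox1 1 fell. Of 10 transcription elongation genes 3 rose and 4 fell, with Brd2 at -0.76 and Nelfe at 0.67, and 2 fell without triCH1flox1 or flox2. Of the fibroblast markers Pdgfrb, a growth factor receptor gene, fell (-0.77) and Thy1 rose by 0.34. Of 12 smooth muscle markers 11 did not pass. The neural marker Tubb3 rose by 0.97, with means of 418 in TSA with DP and 187 in DP.

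**Figure D5:**
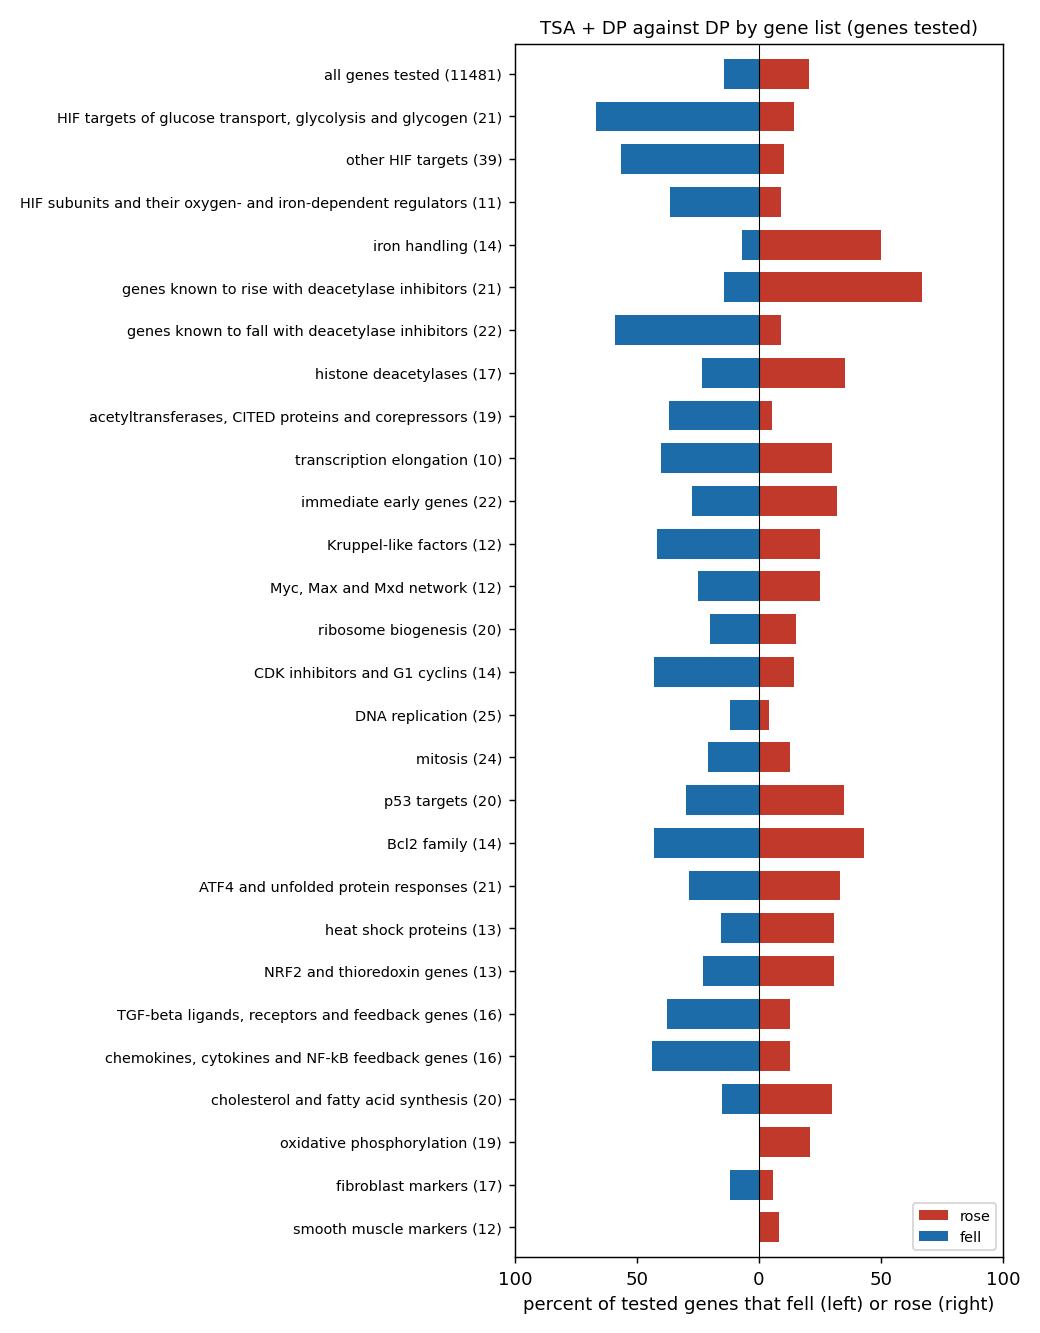
Percent of the tested genes of each list that rose (right, red) or fell (left, blue) in TSA with DP against DP, for lists with at least 10 tested genes, with the number tested in brackets. The top row gives all 11481 genes, where 20.7% rose and 14.4% fell.

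The last comparison asked whether the TSA change under DP differed between the triCH1 lines and the control lines. No gene passed (0 of 11481, 0%) by limma, 522 had an unadjusted p under 0.05, and the smallest adjusted p was 0.149. Among the genes that rose, the median change was 0.61 in the triCH1 lines and 0.64 in the control lines, and among those that fell it was -0.64 in the triCH1 lines and -0.58 in the control lines. For Egln3 the change was 1.51 higher in the triCH1 lines than in the control lines (adjusted p = 0.338), a smaller fall from a lower DP level. The same difference was 0.83 for Ankrd37, 0.32 for Slc2a1 and -0.32 for Vegfa, none of which passed. With the spread taken only from the 8 arrays with DP (4 with TSA and 4 without it), which leaves 2 residual degrees of freedom, 12 genes passed, Egln3 among them (adjusted p = 0.0101). With 2 lines a class of different genotype, class and line cannot be told apart beyond this.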

How the data were processed

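Labelled RNA of 16 treated cultures was hybridised to Affymetrix mouse arrays of the type Mouse430_2, 1 array a culture. The deposited intensity of each of 45101 probe sets is an Affymetrix signal, scaled by the authors to a target of 500 on each array, per the labels. No version of the scaling software is given in the sources used here. The 64 control probe sets were left out, 34945 others carried 1 gene symbol, 932 several and 9160 none, and genes were named from the first kind only, by their brightest passing probe set.

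Values were analysed as log2(signal + 50) with limma 3.58.1 in R 4.3.3. TSA with DP was compared with DP over 8 arrays with line as a block (3 residual and 13.9 prior degrees of freedom). The differences between classes and between cells with and without DP used 16 arrays, as class and treatment means with line within class (6 residual and 10.4 prior degrees of freedom). P-values were adjusted by Benjamini and Hochberg over 11481 genes. Arrays of the same line deviated together, with correlations of 0.237 to 0.386 for the DP and TSA with DP arrays of a line, against -0.24 to 0.0733 between lines, and the pairing comes from the line names. The number of arrays limits the precision.

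Genes named are the 15 largest changes each way alike in all lines, tested members of the HIF lists, up to 4 members of each other list by adjusted p, the 5 largest differences each way in the other comparisons, and a fixed set of well-known HIF, metallothionein and cell cycle genes with Crebbp and Ep300. The lists and members were chosen with earlier results of these data known. Alternatives were other pseudocounts, filters, probe set rules and scalings, no variance trend, array weights, no block, each line left out, array series as a block, and other sets of arrays. The steps were tested on simulated data.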

Additional observations from a re-analysis of the deposited data

Results flagged for a closer look

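In 45 genes the TSA change with DP differed from that without DP by a test of the difference itself, limma with adjusted p under 0.05, and in each the change with DP was the lower one. The values in brackets are these differences on the log2 scale. Among the HIF targets they were Pdk1 (-2.48), Ak4 (-2.32), Ankrd37 (-2.28), Egln3 (-2.27), Stc1 (-2.14), Pfkfb3 (-2.13), Bnip3 (-2.10), Zfp395 (-1.82), Stc2 (-1.65), Slc16a3 (-1.48), Gys1 (-1.44), Hilpda (-1.43) and Slc2a3 (-1.35). The other HIF targets of this kind were Slc2a1 (-1.29), Kdm3a (-1.24), Pfkl (-1.24), Mxi1 (-1.20), Pfkp (-1.12), Vegfa (-1.08), Ndrg1 (-1.05), Hk2 (-1.005), Egln1 (-0.92), Ier3 (-0.87), Fam162a (-0.87), Hk1 (-0.83) and Ero1a (-0.77). Outside those lists they were Pdxp (-1.83), Tbl2 (-1.38), Vldlr (-1.34), Ccng2 (-1.33), Sap30 (-1.32), Gdap10 (-1.31), Dipk2a (-1.23), Plekha2 (-1.21), Clcn3 (-1.14), Tmem45a (-1.09), Pgm1 (-1.08), Tiparp (-1.06), Bcar1 (-1.03), Ppme1 (-0.95), Fam117b (-0.87), Pgp (-0.85), Pnrc1 (-0.82), Arhgap29 (-0.66) and Hbegf (-0.60).

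Single lines or arrays stood apart from the others in 12 of 192 groups of 4 values examined, and chance alone gives about 1 in 20. The TSA change with DP was farther from 0 than in the other 3 lines for Nfatc4 in flox2 (-2.37), Rrm2 in triCH1flox2 (-1.11), Klf2 in flox1 (2.20), Klf3 in triCH1flox1 (-1.68), Clcn3 in flox2 (0.74) and Pnrc1 in flox1 (-1.63). It was nearer to 0 than in the others for Hspa2 in triCH1flox1 (1.34), Kat7 in flox2 (-0.49), Atf4 in triCH1flox2 (-0.79) and the epithelial keratin gene Krt18 in flox2 (-0.02). Ak4 changed by -2.15 in flox1, while the other 3 lines lay between -2.24 and -2.23. The last was 18S ribosomal RNA, with a signal of 4298 in flox2 with DP alone; the remaining 7 arrays with DP lay between 928 and 1693.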

How the results depend on the processing

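Among the 237 named genes and the 45 differences, none that passed the test turned round under any alternative run. Of the named genes' changes in TSA with DP against DP, counted over all alternatives, 3346 values kept their side of the threshold, 167 fell short of it and 25 newly passed. For the differences between the TSA changes with and without DP these numbers were 485, 190 and 0. Of 182 named genes that passed, 159 also did so without each line in turn, and 23 missed the threshold without at least one line. Of the 45 differences, 9 passed in all 4 fits without a line and 14 in none.

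Arrays were paired by line. Without the replicate block, 1496 genes rose, 995 fell and 14 targets of the second HIF list fell, against 2371, 1649 and 22 with it, and the cause was not tested. Leaving out a line gave 1885 to 2160 rises and 1262 to 1515 falls. Without the variance trend 1728 genes rose and 1182 fell, with falls in 10 targets of the first HIF list and 18 of the second. The 45 genes with the lower TSA change under DP numbered 16 without flox2 or triCH1flox2, 17 without flox1 and 20 without triCH1flox1, in fits with fewer arrays, and 13, with 1 gene higher, without the variance trend. The 26 HIF targets among them numbered 9 without flox2, 10 without flox1 or triCH1flox2, 13 without triCH1flox1, and 9 without the variance trend. With the mean of all probe sets 38 genes had the lower change, 34 of them among the 45, and 19 were HIF targets. Without the block for line these numbers were 30, 30 and 20. The class difference gave 0 genes, 1 with a constant of 200, 1 with array weights and 12 from the 8 arrays with DP, and the cause was not tested. The array series (a field of the array barcodes) differed within flox2 only among the arrays with DP, so as a block it leaves the change to the other 3 lines. Among the arrays without DP, which enter the test of the difference, the series differed within triCH1flox1 only. With the series as a block 43 of the 45 differences passed. Signal over background limits the size of change in dim genes.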
